A study of Mus musculus with 10 samples.

Results

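Heat shock chaperones are proteins that fold, refold and sort other proteins, and 10 of their genes are described here in mouse ileum, the distal end of the small bowel. They were taken by gene symbol from a fixed list of 10, out of 16590 genes named on an Illumina mouse bead array. The list holds stress-inducible members (Hspa1a, Hspa1b, Hsph1, Dnajb1, Hsp90aa1 and Hspb1) and constitutive members, made also without stress (Hspa8, Hsp90ab1, Hspd1 and Hspe1). These classes do not rank the genes by level in these samples. The array table names 11 probes for 8 of these genes, and none for Hspa1b or Hsp90ab1. A probe counted as measured when 5 or more arrays gave it a detection p below 0.05; this p compares a probe with the array's negative controls. By this rule 9 of the 11 probes and 7 of the 10 genes were measured, and both probes of Hsp90aa1 were not.

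The study compared 5 wild-type samples (WT) with 5 from a knockout of interferon-gamma (IFNg), a cytokine of T and natural killer cells. All were ileum of male C57Bl/6 mice 8 weeks old, raised free of specific pathogens on standard chow and given no treatment. The knockout is labelled IFNgKO, and the labels say nothing of how the allele was made or of the origin of the wild-type mice. They put 2 samples of each genotype in array set 1 (WT_640, WT_641, IFNgKO_645 and IFNgKO_646) and 3 of each in array set 2 (WT_642 to WT_644 and IFNgKO_647 to IFNgKO_649), without saying what set the sets apart. The labels do not tie each sample to an animal of its own. The p-values therefore reflect sample-to-sample spread, which may be technical.

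Unfolded proteins release heat shock factor 1 from its chaperones, and the freed factor binds inverted repeats of the letters GAA, the heat shock elements, in the promoters of the inducible genes. The proteins of the HSP70 family hold unfolded stretches in a cycle driven by ATP, in which J proteins such as Dnajb1 stimulate ATP breakdown and HSP110 proteins such as Hsph1 exchange the nucleotide. Hspd1 and Hspe1 form the folding chamber of mitochondria and its lid. The intestinal epithelium is known to make inducible HSP70 and the small chaperone Hspb1 in response to signals from gut bacteria.

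Whole-array measures are given once. The arrays detected 10618 to 12975 probes each, and 12039 of 25697 probes were tested. WT_641 stood apart, with the fewest probes detected and the lowest mean correlation with the other arrays (0.949, against 0.965 to 0.975). Between the array sets 2316 of 12039 probes differed, so array set was fitted in every genotype comparison. Ifng itself, the targeted gene, has 2 probes, each detected on 0 of 10 arrays, WT included, so the labels could not be checked by it. The log2 of the summed linear levels of the enterocyte markers was 16.74 to 17.17 in WT and 16.85 to 17.04 in the knockout. Fabp2 was the 1 of 7 on the array that no array detected.

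Hspa1a, which encodes inducible HSP70, and Hsph1, its HSP110 partner, were lower on average in the knockout, but neither difference passed the test. Hspa1a differed by -1.38 ± 0.41 (log2 knockout minus WT ± SE), a ratio of 0.385, and Hsph1 by -0.80 ± 0.27, a ratio of 0.574. Most WT samples had a high level of both genes while the 5 knockout samples had a low one. The exception, WT_640, was as low as the knockout.

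The log2 level of Hspa1a was 6.76 in WT_640, 9.08 in WT_641, 9.29 in WT_642, 7.84 in WT_643 and 9.40 in WT_644. In the knockout it was 6.93 in IFNgKO_645, 7.44 in IFNgKO_646, 7.17 in IFNgKO_647, 7.26 in IFNgKO_648 and 6.69 in IFNgKO_649. Thus 4 WT samples lay above every knockout sample and WT_640 lay inside the knockout range, so the groups overlapped. WT averaged 8.47 ± 1.14 and the knockout 7.10 ± 0.29 (SD, n = 5 each). The adjusted p was 0.268 (limma, Benjamini-Hochberg over 12039 probes), with an unadjusted p of 0.00534 and a 95% interval of -2.27 to -0.48 for the difference. Within array set 1 the difference was -0.73 and within array set 2 it was -1.80. In array set 2 every WT sample was above every knockout sample, and the share of all tested probes with such a separation within that set was not counted.

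Hsph1 was at 8.62 in WT_640, 10.30 in WT_641, 10.51 in WT_642, 10.05 in WT_643 and 10.83 in WT_644. The knockout samples were at 8.81 in IFNgKO_645, 8.95 in IFNgKO_646, 9.15 in IFNgKO_647, 9.68 in IFNgKO_648 and 9.72 in IFNgKO_649. WT_640 was the lowest of all samples for Hsph1, while for Hspa1a IFNgKO_649 was lower still. The other 4 WT samples lay above the whole knockout group. WT averaged 10.06 ± 0.86 and the knockout 9.26 ± 0.42 (SD, n = 5 each), with an adjusted p of 0.303 (limma), an unadjusted p of 0.0108 and a 95% interval of -1.38 to -0.22. Split by array set, it came to -0.58 (set 1) and -0.95 (set 2). An interaction term of genotype and array set gave an adjusted p of 0.999 for both genes (limma), so a difference between the sets was not shown.

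**Figure D1:**
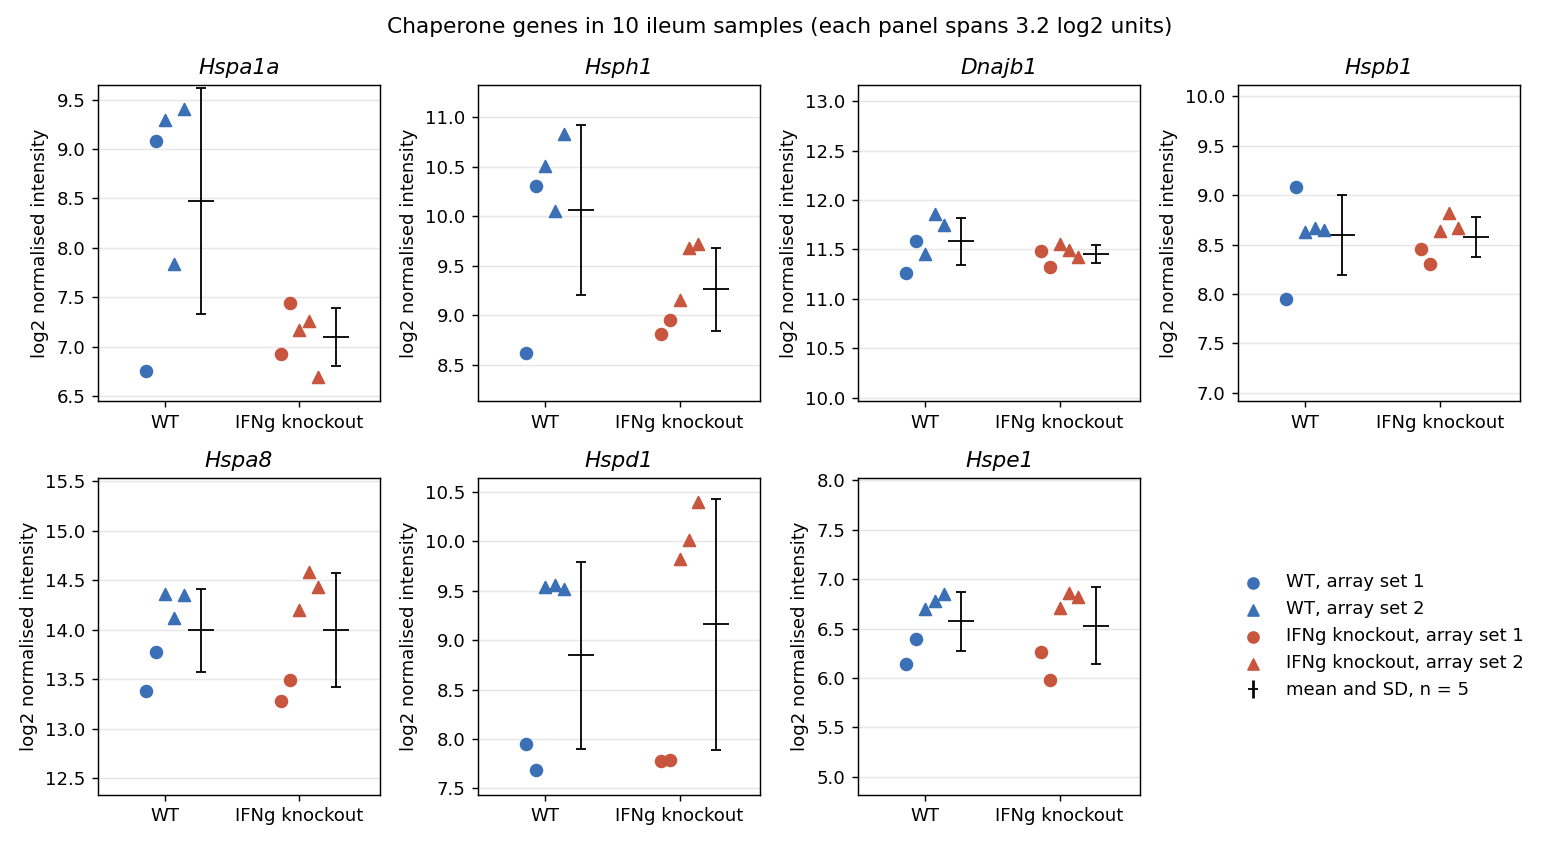
Log2 normalised intensity of the 7 measured chaperone genes in each of the 10 samples, WT in blue and knockout in red, circles for array set 1 and triangles for array set 2, with the mean and SD of each group (n = 5) in black. For Hspa1a and Hsph1 the WT sample at the bottom is WT_640, and for Hspa8, Hspd1 and Hspe1 the circles lie below the triangles in both genotypes. Each gene is given by its brightest probe.

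None of the 7 measured genes passed 5% between genotypes with limma, and 2 of them (Hspa1a and Hsph1) had an unadjusted p under 0.05. The background was 0.0166% of tested probes past 5% (2 of 12039), with 1474 at an unadjusted p under 0.05. Of the 7 genes 5 were lower and 2 higher in the knockout, with a median difference of -0.04, against 0.004 for all tested probes. No measured chaperone had groups of 5 that did not overlap, which 1.34% of tested probes had. In these bulk samples fewer cells of a type and less RNA per cell cannot be told apart.

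Markers of other cell types are given beside this comparison, and with limma 0 of them passed 5% between genotypes. T cell markers were higher in the knockout for 5 of 5 measured genes (median 0.47, with 4 at an unadjusted p under 0.05). The log2 of their summed linear levels, in which bright genes weigh most, was 9.08 to 9.45 in WT and 9.14 to 9.86 in the knockout. Among them Cd8b1 was detected on 1 WT and 4 knockout arrays, so it counted as measured mainly through the knockout. In WT its level was 4.81 to 5.36, near background. Macrophage markers were higher for 4 of 4 (median 0.43, with 2 at an unadjusted p under 0.05), at 10.17 to 11.14 and 10.75 to 11.34. B and plasma cell markers were higher for 2 of 2 (median 0.47, with 1 at an unadjusted p under 0.05), at 7.90 to 8.71 and 7.96 to 9.68. Smooth muscle markers were higher for 7 of 8 (median 0.13, with 0 at an unadjusted p under 0.05), at 15.81 to 16.38 and 16.19 to 16.40. Uchl1, the 1 measured marker of enteric neurons, was at -0.57 ± 0.18 (SE, unadjusted p = 0.00779, adjusted p = 0.286, limma), from 7.84 to 9.10 in WT and from 7.26 to 8.15 in the knockout. The T cell marker Cd8a, the B and plasma cell markers Ms4a1 and Jchain, and the neuron and glia markers Elavl4, Snap25, S100b and Gfap were detected on no array. The part of these cells in the Hspa1a and Hsph1 values was not tested.

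The Hspa1a value carries an identity limit. Hspa1a and Hspa1b are neighbouring, near-identical copies on chromosome 17, 10120 bases apart in the mouse assembly GRCm38.p6, and the probe's own sequence is not used here. Signal from Hspa1b on this probe therefore cannot be told apart from that of Hspa1a. The promoter windows of both, 250 bases before to 50 after the transcript start, share 296 of 300 bases.

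The promoter windows of Hspa1a and Hsph1 are shown because these genes varied together from sample to sample. They come from RefSeq on GRCm38.p6, read 5′ to 3′ on the gene's strand, and capitals mark each 2-unit heat shock element, GAANNTTC or TTCNNGAA, overlapping ones merged.
Hspa1a, chr17:34972107-34972406, minus strand: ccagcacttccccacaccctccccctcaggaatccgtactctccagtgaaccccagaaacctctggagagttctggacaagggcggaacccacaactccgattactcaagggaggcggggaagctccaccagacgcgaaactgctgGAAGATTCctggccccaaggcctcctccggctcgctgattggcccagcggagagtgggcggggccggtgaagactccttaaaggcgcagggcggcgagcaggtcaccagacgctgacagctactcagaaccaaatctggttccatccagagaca
Hsph1, chr5:149636266-149636565, minus strand: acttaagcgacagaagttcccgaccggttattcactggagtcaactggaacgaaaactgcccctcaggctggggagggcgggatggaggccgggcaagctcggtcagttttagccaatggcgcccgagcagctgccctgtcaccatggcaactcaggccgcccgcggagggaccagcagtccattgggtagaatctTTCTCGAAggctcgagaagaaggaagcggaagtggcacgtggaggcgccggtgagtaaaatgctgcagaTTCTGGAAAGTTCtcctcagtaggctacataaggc
The Hspa1a window holds 1 such element, at position -104 counted from the transcript start. The Hsph1 window holds 3, at positions -54 to 21, and the last 2 overlap as a 3-unit element, GAANNTTCNNGAA or its reverse complement TTCNNGAANNTTC. Both strands were searched. Of 32851 RefSeq promoter windows 15.1% hold a 2-unit and 0.603% a 3-unit element. Windows were found for 7 of the 10 chaperone genes (Hspa1a, Hspa1b, Hsph1, Dnajb1, Hspb1, Hspd1 and Hspe1), and 6 of these genes hold a 2-unit element, Dnajb1 being the one that does not. Counted by window, as the background is, 7 of 10 hold one, and Hspd1 has it in only one of its windows. These windows are not independent, since those of Hspa1a and Hspa1b are near-identical and both Hsph1 windows overlap. A match describes the letters and is no measurement of binding.

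Across the 10 samples the levels of Hspa1a and Hsph1 followed each other. Pearson's r was 0.86 (permutation p = 0.00171, adjusted p = 0.00513 over 3 pairs) and Spearman's rho was 0.78 (permutation p = 0.0107, adjusted p = 0.0321). With both genes centred within array set, r was 0.92 and rho 0.85 (permutation p = 0.00249 and 0.00547, adjusted 0.00747 and 0.0164). Genotype was not taken out in these tests, so they also take in the genotype difference of both genes. With both genes centred within genotype and array set, r was 0.86, given without a test. Array set 2 alone, with 6 samples, gave an r of 0.89 and a rho of 0.83 (permutation p = 0.0178 and 0.0577, adjusted 0.0534 and 0.173), while array set 1 holds too few samples. Without WT_642 and WT_644, the samples farthest from the Hspa1a median, r was 0.70 and rho 0.57 (permutation p = 0.032 and 0.152, adjusted 0.096 and 0.227), so the call rests on those samples. Leaving out 1 sample at a time kept r between 0.80 and 0.93.

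Dnajb1, the J protein that pairs with inducible HSP70, did not show the same range. Its log2 level was 11.26, 11.59, 11.46, 11.86 and 11.75 in WT_640 to WT_644, and 11.49, 11.32, 11.56, 11.50 and 11.42 in IFNgKO_645 to IFNgKO_649. WT_640 was the lowest sample, as for Hsph1, but the whole spread was 0.60 in WT and 0.23 in the knockout, against 2.64 and 0.75 for Hspa1a. The genotype difference was -0.13 ± 0.13 (SE), with a 95% interval of -0.41 to 0.15 and an adjusted p of 0.718 (limma). Its r was 0.48 with Hspa1a (permutation p = 0.159, adjusted 0.159; rho 0.58, p = 0.0891, adjusted 0.0891) and 0.64 with Hsph1 (permutation p = 0.0444, adjusted 0.0667; rho 0.61, p = 0.0672, adjusted 0.0891). Within array set 2 these r were 0.32 and 0.34 (permutation p = 0.528 and 0.495), and without the 2 samples farthest from the median of the first gene they were 0.50 and 0.38.

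Hspb1, a small heat shock protein that holds unfolded proteins without ATP, had the same mean in both genotypes within its error. The level was 7.95 in WT_640, 9.08 in WT_641, 8.63 in WT_642, 8.67 in WT_643 and 8.65 in WT_644. In the knockout it ran from 8.30 in IFNgKO_646 to 8.82 in IFNgKO_648, with a median of 8.64. The array set 1 WT samples were the lowest and the highest of all 10, and the others fell between them. The difference was -0.02 ± 0.18 (SE), with a 95% interval of -0.41 to 0.37 and an adjusted p of 0.980 (limma), and it turned to 0.17 without WT_641.

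Hsp90aa1, the stress-inducible form of HSP90, could not be compared. Its brighter probe was detected on 2 of 10 arrays, WT_642 and IFNgKO_649, and its other probe on 0. Their log2 levels were 4.88 to 5.87 and 4.54 to 5.10 over all samples. At this signal over background a difference was not detectable.

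Between samples of the same genotype and array set, Hspa1a and Hsph1 varied far more than most genes on the array. The residual SD of Hspa1a, with genotype and array set fitted, was 0.86 log2 units, at percentile 99.6 of the 12039 tested probes, whose median was 0.25. Hsph1 followed at 0.54 (percentile 96.6) and Hspb1 at 0.31 (71.0). Dnajb1 had 0.16 (14.2). On their brightest probes the constitutive genes lay at 0.24 for Hspd1 (45.1), 0.20 for Hspa8 (27.7) and 0.13 for Hspe1 (5.6). The second probes of Hspa8 and Hspd1 lay higher, at 0.57 (97.4) and 0.39 (87.2), so the spread of these genes depends on the probe. These are descriptions with no test.

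Much of this spread sat in the WT group. Within array sets the SD of Hspa1a was 1.19 in WT and 0.33 in the knockout, and that of Hsph1 was 0.76 and 0.27. The ratio of WT to knockout SD was 3.64 for Hspa1a (percentile 91.8), 2.86 for Hsph1 (85.2), 2.44 for Dnajb1 (79.5) and 4.59 for Hspb1 (95.4), against a median of 1.42 over all tested probes. For the constitutive genes the ratio on the brightest probes was 1.09 for Hspa8, 0.92 for Hspe1 and 0.47 for Hspd1. The second probes gave 6.40 for Hspa8 (98.2) and 2.03 for Hspd1 (71.1), so a high ratio was not particular to the inducible genes. Single samples carried part of the WT spread. Without WT_640 the residual SD was 0.55 for Hspa1a and 0.32 for Hsph1, and without WT_641 that of Hspb1 was 0.12. The ratio was chosen as a measure after the values were seen, and the part of array quality in WT_641 was not tested.

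**Figure D2:**
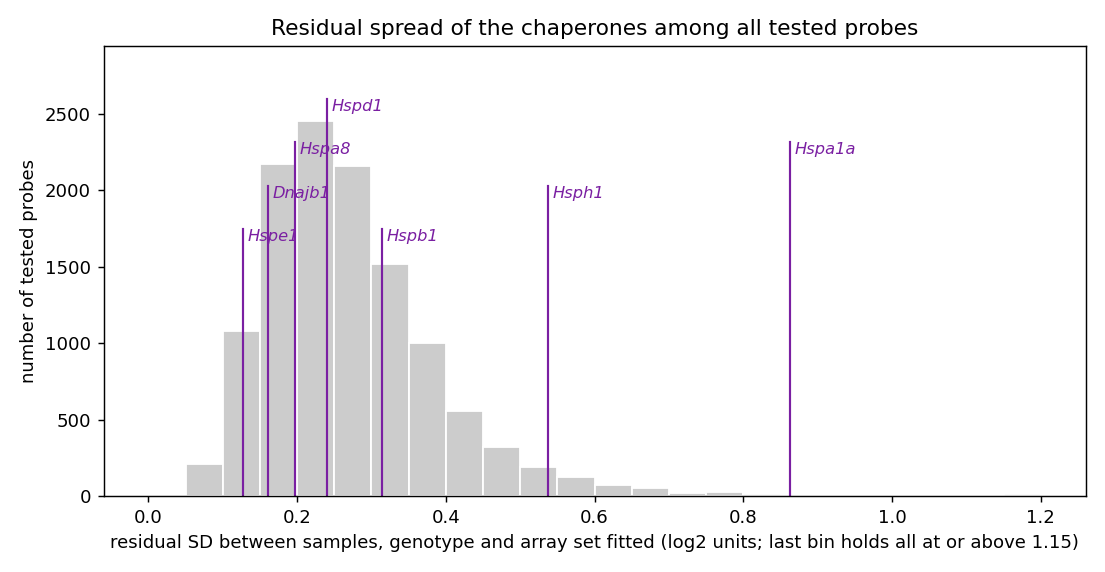
Histogram of the residual SD of all 12039 tested probes (x axis, log2 units; y axis, number of probes). A line marks the brightest probe of each measured chaperone, and line heights only separate the names. Hspa1a at 0.86 and Hsph1 at 0.54 stand in the right tail, and Hspe1 at 0.13 and Dnajb1 at 0.16 on the left side.

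On their brightest probes the constitutive chaperones differed between the array sets, and second probes of Hspa8 and Hspd1, given below, did not pass that test. Hspa8, Hspd1 and Hspe1 were higher in array set 2 than in array set 1, by 0.86 ± 0.14, 2.00 ± 0.16 and 0.59 ± 0.12 log2 units (SE), which are ratios of 1.81, 4.01 and 1.51. All 3 passed 5% (adjusted p = 0.000766, 4.14e-06 and 0.00435, limma), and for each every sample of set 2 lay above every sample of set 1. The background was 19.2% of tested probes past 5% between the sets, 13% higher and 6.28% lower in set 2, and 16% of probes with sets that did not overlap. None of Hspa1a, Dnajb1 and Hspb1 passed between the sets, and Hsph1 gave 0.82 ± 0.28 (adjusted p = 0.053, limma). All 7 measured genes were higher in set 2, with a median of 0.59 against -0.12 for all tested probes.

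Hspa8, the constitutive HSP70 that folds new proteins and strips clathrin from vesicles, was at 13.38 and 13.77 in WT_640 and WT_641 and at 13.28 and 13.49 in IFNgKO_645 and IFNgKO_646. In array set 2 it was at 14.36, 14.11 and 14.35 in WT_642 to WT_644 and at 14.20, 14.58 and 14.43 in IFNgKO_647 to IFNgKO_649. Within each set the genotypes overlapped. The genotype difference was 0.005 ± 0.141 (SE), with a 95% interval of -0.30 to 0.31 and an adjusted p of 0.995 (limma). A second Hspa8 probe disagreed on the sets, at 0.07 ± 0.29 between them (adjusted p = 0.873), and gave a genotype difference of 0.42 ± 0.28 (adjusted p = 0.564). It was lowest in WT_641, at 10.07, against 10.94 to 11.99 in the others.

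Hspd1, the mitochondrial chaperonin HSP60, showed the widest gap between sets of the 7. The level was 7.95 and 7.68 in WT_640 and WT_641 and 7.78 and 7.79 in IFNgKO_645 and IFNgKO_646, where the genotypes overlapped. In array set 2 it was 9.54, 9.55 and 9.51 in WT_642 to WT_644 and 9.82, 10.01 and 10.39 in IFNgKO_647 to IFNgKO_649. Each knockout sample of that set was above each WT sample, and the share of tested probes so separated was not counted. The genotype difference was 0.31 ± 0.15 (SE) with an adjusted p of 0.431 (limma), at -0.03 in the first array set and 0.54 in the second. The difference between those values, 0.57 ± 0.29, had an adjusted p of 0.999 (unadjusted 0.0683).

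The second Hspd1 probe gave another picture. It differed between sets by 0.39 ± 0.22 (adjusted p = 0.21) and between genotypes by 0.69 ± 0.21 (adjusted p = 0.272, unadjusted 0.0059, limma), and was 6.25 to 7.69 in WT and 7.43 to 8.00 in the knockout. Averaging both probes gave a genotype difference of 0.50 ± 0.15 (adjusted p = 0.271). Both probes were higher in the knockout, and they disagreed on where the samples parted.

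Hspe1, the HSP10 lid of the chaperonin, lies head to head with Hspd1 on chromosome 1, and both gene models overlap by 96 bases in GRCm38.p6. Its level was 6.14 and 6.40 in the WT and 6.26 and 5.98 in the knockout samples of array set 1. In array set 2 it was 6.69 to 6.85 in WT and 6.71 to 6.86 in the knockout. The genotype difference was -0.04 ± 0.12 (SE), with a 95% interval of -0.31 to 0.22 and an adjusted p of 0.902 (limma). The Hspe1 probe was dim, with a detection p of 0.020 in WT_640 and 0.029 in WT_641. Dnajb1, listed as inducible, was far brighter. The part of this low signal in the small residual spread of Hspe1 was not tested. The window around the Hspe1 start is shown because the same bases, read from the other strand, are part of a second Hspd1 window.
Hspe1, chr1:55087898-55088197, plus strand: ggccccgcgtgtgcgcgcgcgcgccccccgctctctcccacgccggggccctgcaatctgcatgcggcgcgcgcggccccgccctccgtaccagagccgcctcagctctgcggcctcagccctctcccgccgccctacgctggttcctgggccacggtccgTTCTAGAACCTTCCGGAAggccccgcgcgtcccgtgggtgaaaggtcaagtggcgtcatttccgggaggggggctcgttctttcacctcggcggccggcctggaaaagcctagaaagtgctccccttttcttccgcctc
The capitals form 1 run of 3 overlapping 2-unit elements, which hold 2 overlapping 3-unit elements. The Hspe1 window, one of the Hspd1 windows and both Hsph1 windows were the 4 of 10 chaperone windows with a 3-unit element.

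**Figure D3:**
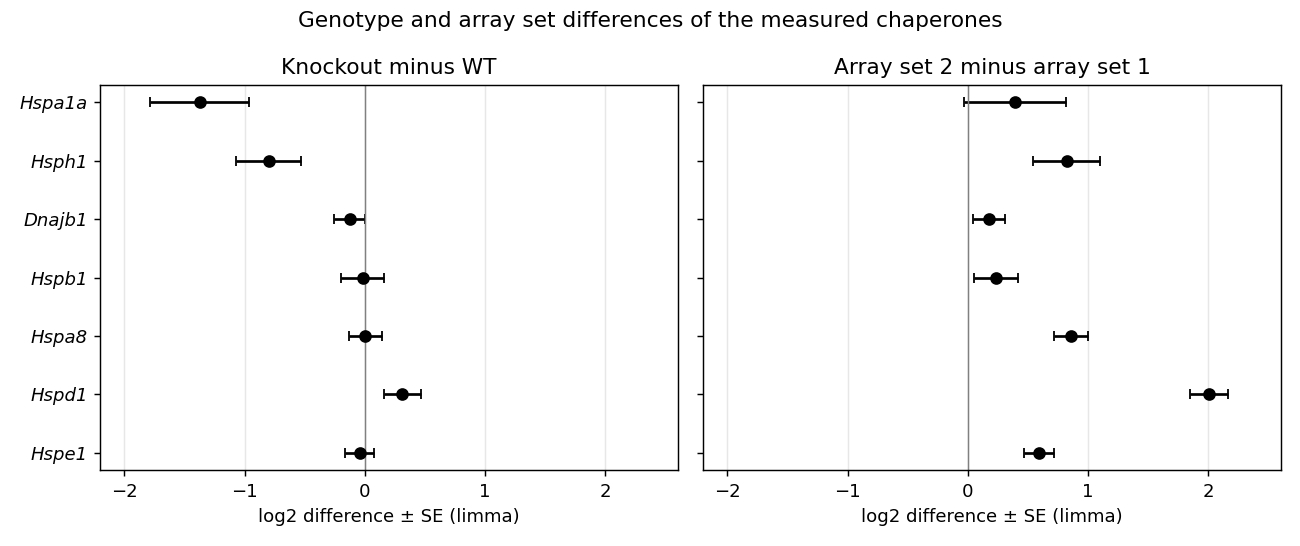
Log2 differences ± SE (limma) of the 7 measured chaperones, knockout minus WT on the left and array set 2 minus array set 1 on the right. Hspa1a (-1.38) and Hsph1 (-0.80) lie farthest from 0 on the left, and Hspd1 (2.00), Hspa8 (0.86) and Hsph1 (0.82) on the right. Each gene is given by its brightest probe.

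The labels do not say in what the array sets differed, so the mice and the handling of samples and arrays cannot be told apart in these set differences. Of the immediate-early genes, which respond within minutes to handling and stress, 1 of 12 measured members passed 5% as higher in set 2 and 0 as lower, against 13% and 6.28% of all tested probes, so the list did not exceed that background. The 1 gene was Fos, a transcription factor subunit, at 2.15 log2 units (adjusted p = 0.000267, limma). Its level was 7.48 to 8.64 in the first array set and 9.75 to 11.47 in the second. The enterocyte list had 1 of 6 higher past 5%, near the 13% of all tested probes, which was Cdh1, the epithelial cadherin (0.74 ± 0.17, adjusted p = 0.00646). The macrophage list had 0 of 4 higher and 1 of 4 lower past 5%, beside the 6.28% of all tested probes lower. That gene was C1qb (-0.50 ± 0.15, adjusted p = 0.0341, limma). The smooth muscle list had 0 of 8 in either direction, and the number of probes detected was 10618 to 11746 in set 1 and 10818 to 12975 in set 2. Their part in the chaperone values was not tested.

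Set against each other, inducible and constitutive chaperones placed the samples differently. With each gene centred on its mean over the 10 samples, the mean of the 4 measured inducible genes was -0.74, 0.62, 0.58, 0.22 and 0.77 in WT_640 to WT_644. In the knockout it was -0.47, -0.39, -0.26, -0.07 and -0.26 in IFNgKO_645 to IFNgKO_649. All 5 knockout samples were thus below 0, and 4 of 5 WT samples above it. The mean of the 3 constitutive genes, on their brightest probes, was -0.76 to -0.57 in the first array set and 0.30 to 0.70 in the second, in both genotypes. The second probes of Hspa8 and Hspd1, whose array sets overlapped, did not enter this mean.

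The inducible mean minus the constitutive mean was -0.05 and 1.19 in the WT and 0.27 and 0.38 in the knockout samples of array set 1. In array set 2 it was 0.24, -0.08 and 0.38 in WT and -0.65, -0.71 and -0.96 in the knockout. The genotypes overlapped in the first array set and did not in the second, where the share of tested probes so separated was not counted. With array set fitted, knockout minus WT was -0.67, and the residual SD between samples was 0.42. Among the inducible genes Hspa1a (-1.38) and Hsph1 (-0.80) carried most of it, beside -0.13 for Dnajb1 and -0.02 for Hspb1. No p is given for such a score, since its genes were chosen with results of these samples known.

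**Figure D4:**
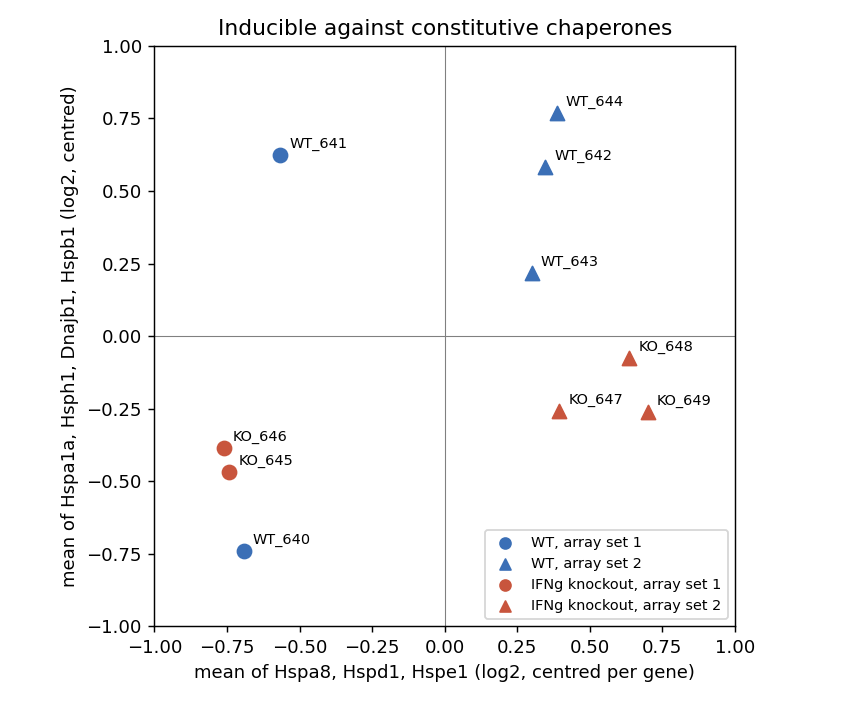
Mean of the constitutive genes Hspa8, Hspd1 and Hspe1 (x axis) against the mean of the inducible genes Hspa1a, Hsph1, Dnajb1 and Hspb1 (y axis) in each sample, in log2 units centred per gene. The array sets part along the x axis, from -0.76 to -0.57 and from 0.30 to 0.70, and WT_640 (y = -0.74) is the 1 WT sample below 0 on the y axis. Each gene is given by its brightest probe.

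The wider chaperone machinery showed no called genotype difference. Lists of heat shock factors, partner proteins and other chaperones hold 96 further genes, of which 59 were measured. With limma 0 passed 5% and 7 had an unadjusted p under 0.05, against 1474 of the 12039 tested probes, and 34 were higher and 25 lower with a median of 0.04. Between the array sets 7 passed as higher and 7 as lower, together 23.7%, near the 19.2% of all tested probes. The higher share was close to the 13% of all tested probes. The genes higher in set 2 were the chaperonin subunits Cct8 (2.16 ± 0.18, SE) and Tcp1 (1.57 ± 0.18), the J protein gene Dnaja2 (1.24 ± 0.18), Hsbp1 (0.86 ± 0.15), the HSP90 immunophilin gene Ppid (0.73 ± 0.16), Hspb7 (0.63 ± 0.21) and the HSP90 activator gene Ahsa1 (0.40 ± 0.12). Those lower were Clu (-0.66 ± 0.14), the HSP70 nucleotide exchange factor gene Hspbp1 (-0.62 ± 0.19), Cirbp (-0.52 ± 0.14), Hspbap1 (-0.51 ± 0.13), Sgta (-0.47 ± 0.14), Dnajc2 (-0.42 ± 0.13) and Pih1d1 (-0.42 ± 0.14). Their adjusted p-values (limma) ran from 4.82e-06 for Cct8 to 0.0491 for Pih1d1.

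Among heat shock factors and their regulators 0 of 3 measured genes passed and all 3 were lower. They were Hsf4, a heat shock factor (-0.32 ± 0.14, SE), Hspbap1 (-0.20 ± 0.13) and Hsbp1, which binds the factor's trimer (-0.06 ± 0.14). Between the array sets Hsbp1 (0.86, adjusted p = 0.000918) and Hspbap1 (-0.51, adjusted p = 0.0176, limma) passed in opposite directions. Of the J proteins 0 of 11 passed, 6 being higher and 5 lower. The lowest p was that of Dnajc15, a J protein of the mitochondrial import motor (0.49 ± 0.13, adjusted p = 0.239), followed by Dnajc2, which sits on the ribosome (0.32 ± 0.13), and Dnajc19, another mitochondrial import factor (0.27 ± 0.14).

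Dnajc15 was 9.94 to 10.31 in WT and 10.32 to 10.64 in the knockout, so its groups narrowly did not overlap. The same held for 1.34% of all tested probes. Of the other HSP70 and HSP110 genes 0 of 3 passed: Hspa12b (0.22 ± 0.18, SE), the mitochondrial HSP70 gene Hspa9 (-0.06 ± 0.15) and Hspa2 (0.04 ± 0.18). The other 6 genes of that list, Hspa4 and Hspa4l of the HSP110 branch among them, were detected on no array by any probe. HSP70 partners had 0 of 8 past 5%, with Sgta at -0.28 ± 0.13, the heat-inducible nucleotide exchange factor Bag3 at -0.20 ± 0.13 and Bag4 at 0.18 ± 0.16.

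HSP90 partners had 0 of 11 past 5%, 5 higher and 6 lower. Ahsa2, an activator of its ATPase, was at -0.33 ± 0.13 (SE), Chordc1 at -0.33 ± 0.17 and the glucocorticoid-induced immunophilin Fkbp5 at 0.40 ± 0.30. Small heat shock proteins other than Hspb1 had 0 of 5 past 5% and 5 of 5 higher, with Hspb7 at 0.45 ± 0.20, the lens crystallin gene Cryab at 0.26 ± 0.18 and Hspb6, abundant in smooth muscle, at 0.12 ± 0.17. Hspb7 was detected on 2 WT and 5 knockout arrays. The smooth muscle markers given above were higher in 7 of 8, with 0 at an unadjusted p under 0.05 (limma). Their part in the small heat shock protein values was not tested.

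The cytosolic chaperonin TRiC and its helper prefoldin had 0 of 8 past 5% and 7 of 8 higher, with a median of 0.18. Cct3 was at 0.21 ± 0.12 (SE), Cct4 at 0.24 ± 0.13 and Pfdn1 at -0.31 ± 0.18. Mitochondrial proteostasis genes had 0 of 5 past 5%, with the protease subunit Clpx at 0.23 ± 0.15 and the nucleotide exchange factors of mitochondrial HSP70, Grpel1 and Grpel2, at 0.16 ± 0.16 and -0.11 ± 0.17.

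Other heat-inducible genes had 0 of 3 past 5%, with Ddit3, the stress factor CHOP, at -0.49 ± 0.16 (SE), the collagen chaperone Serpinh1 at 0.42 ± 0.20 and Clu, which encodes the extracellular chaperone clusterin, at -0.25 ± 0.14. The cold-inducible genes Rbm3 and Cirbp, RNA-binding proteins that rise as body temperature falls, were at 0.42 ± 0.21 and 0.008 ± 0.134. Among immediate-early genes 0 of 12 passed between genotypes, with Atf3 at 0.60 ± 0.27, Gadd45b at -0.43 ± 0.21 and Fos at 0.57 ± 0.31.

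The genes most like the mean of Hspa1a, Hsph1 and Dnajb1 were sought over 8682 genes. The measure was the r of values centred within genotype and array set with the centred mean of these 3, over 10 samples. With this centring Dnajb1 had an r of 0.14 with Hspa1a and 0.29 with Hsph1. Hspa8, on its brightest probe, had 0.77 and 0.86 with them. The highest were Rad54l (0.987), Tmem141 (0.987), Ralb (0.980), Ercc4 (0.979), Tob2 (0.978) and Faap100 (0.977), and the lowest Mrrf (-0.992), Alg14 (-0.987) and Uchl5 (-0.977). Hspb1 ranked 334 (0.85) and Hspa8 577 (0.80), while Hspd1 had an r of -0.43. The points share the arrays, and the centred mean was 0.72 in WT_641 and -0.72 in WT_640, against -0.42 to 0.33 in the other samples. These are the only WT samples of array set 1, so centring makes their values mirror each other. Leaving out WT_641 and centring anew puts WT_640 at 0 for every gene, so the check removes the part of both samples. In that check the 6 highest ranked 6 to 74, with an r of 0.90 to 0.97. Hspa8 kept an r of 0.70 and that of Hspb1 was -0.01.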

How the data were processed

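Per the file headers, the deposited non-normalised table gives each probe a detection p-value and an intensity (linear scale) on each array. The authors' value table holds linear intensities that, as read from the values, are quantile normalised without background subtraction. The submitters' processing notes name lumi, without its version or role; no scanner software is named in the sources used here.

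Intensities were background-corrected by normexp with controls inferred from the detection p, with an offset of 16, then quantile normalised and taken to log2 (neqc, limma 3.58.1, R 4.3.3). The 12039 probes detected (p under 0.05) on at least 5 of 10 arrays were tested with lmFit and eBayes, with genotype and array set as terms, and adjusted by Benjamini-Hochberg at 5%. Where a gene had more than 1 tested probe, the brightest on average stood for it. Gene names came from the platform table (23978 probes with 1 symbol, 0 with several, 1719 with none), updated through a RefSeq gene table of GRCm38.p6, which matched 23971 and changed 8. Correlations used two-sided permutation tests with 100000 resamples. The steps were tested on simulated data. Alternatives changed background, normalisation, filter, array set, weights, variance model and probe summary, or left out samples. The number of arrays limits the precision.

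The members and lists were chosen with earlier results of these data known. All members and probes are named, with the 3 genes of lowest genotype p in each pathway list, list members past 5% between genotypes or array sets, and the 6 most and 3 least alike genes.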

Additional observations from a re-analysis of the deposited data

How the results depend on the processing

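No measured chaperone passed 5% between genotypes under any of 22 alternatives. Hspa1a and Hsph1 were lower in the knockout in each of their 22, with adjusted p-values (limma) of 0.0596 to 0.9 and 0.0999 to 0.9, the lowest ones without WT_640. Leaving out 1 sample put Hspa1a at -1.83 to -1.11 and Hsph1 at -1.09 to -0.57. Array set 1 alone gave -0.76 for Hspa1a.

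Signs of small differences turned. Median scaling, which moved the median of all probes to 0.19, gave 0.054 for Dnajb1, 0.21 for Hspb1 and 0.13 for Hspe1. Array set 2 alone gave 0.060 for Hspb1 and 0.027 for Hspe1, array weights 0.10 for Hspb1, and array set 1 alone -0.18 for Hspa8 and -0.033 for Hspd1. Leaving out 1 sample gave -0.17 to 0.17 for Hspb1, -0.060 to 0.096 for Hspa8 and -0.075 to 0.014 for Hspe1. It put the set difference of Hspa1a at -0.18 to 0.71, and the difference in genotype effect between sets at -2.23 to 0.089 for Hspa1a, -1.20 to 0.48 for Hsph1 and -0.37 to 0.76 for Hspb1. The cause was not tested.

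Probes called between genotypes numbered 5 with an offset of 50 and in the authors' value table, 10 under median scaling, 4 with a trended robust variance, 1 with detection on all arrays (fewer probes tested) or without the array set term, and 0 in either array set alone (fewer samples). Leaving out 1 sample gave 1 to 4. Chaperones called between array sets numbered 3 to 5 when 1 sample was left out, with 5 without WT_641 (Hsph1 at 1.10 and Hspb1 at 0.47), and Hsph1 also passed under median scaling (1.00), without background correction (0.74) and without IFNgKO_647 (0.92). The correlation of Hspa1a and Hsph1 no longer passed without the 2 samples farthest from the median (0.70) or in array set 2 alone (0.89), the latter chosen after seeing the data. The inducible minus constitutive difference stayed between -0.93 and -0.55, and no alternative used the second probes of Hspa8 and Hspd1 for it. No paired analysis was possible because the genotypes share no replicate numbers.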
